A study of Mus musculus with 8 samples.

Results

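A set of 9 genes that encode structural and membrane proteins of central nervous system myelin, Mbp, Mog, Mag, Mobp, Cnp, Mal, Cldn11, Opalin and Ermn, was followed along the oligodendrocyte lineage of the mouse hippocampus. They were chosen by symbol. All 9 of 9 symbols were listed once each in both hippocampal count tables, among 55367 symbols. Oligodendrocytes wrap axons in a membrane that is compacted on its cytoplasmic and outer faces, and they arise from proliferating precursors that express the growth factor receptor Pdgfra. A precursor that exits the cell cycle passes through a short-lived stage marked by Bmp4, a secreted signalling protein, and Enpp6, a choline phosphodiesterase, and then reaches a mature state with Aspa, the aspartoacylase of oligodendrocytes, and, in a subset, the secreted protease Klk6. Myelin genes are known to be switched on during differentiation under the transcription factors Sox10 and Myrf.

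The study depleted regulatory T cells at a single point in time and asked how the hippocampal niche changes. Both groups of mice received diphtheria toxin. The DTRpos library came from Foxp3-DTR+ mice, in which the toxin receptor is placed under Foxp3, the master gene of regulatory T cells, and the DTRneg library from Foxp3-DTR- littermates that lack the receptor. Each group is 1 library of 2 pooled mice, so no difference between the groups has a replicate check and no test was made. Intervals given below are exact 95% intervals that cover counting error alone.

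Live CD45- Thy1- cells were sorted and profiled by droplet sequencing of 3' transcript ends, in which each captured RNA molecule is counted as a unique molecular identifier (UMI). The DTRneg library gave 6863 cells with a median of 6003 UMIs and the DTRpos library 5691 cells with a median of 4509 UMIs. The libraries shared 15 cell barcodes. Cells were clustered without the 9 genes and without 35 further myelin genes. Clusters were then named from markers, and the mature markers included Trf, Hapln2 and Gjb1 of those 35. Precursor-like cells numbered 683 in DTRneg and 891 in DTRpos, differentiating oligodendrocyte-like cells 128 and 78, and mature oligodendrocyte-like cells 3593 and 2528. All 8 precursor markers, 10 differentiating markers and between 3 and 8 mature markers per cluster were raised in the clusters so named. Mature cells came from 5 clusters, of which cluster 2 was led by the haemoglobin gene Hbb-bs and cluster 7 by immediate early genes such as Fos and Egr2. The samples are labelled as neurons and glia, but neuron-like cells numbered 3 and 9. Levels below are in CPM, the UMIs of a gene summed over all cells of a class and library and scaled to a class total of 1000000. Because the assay counts transcript ends, a level is compared between genes as a percentage of the same gene's level in mature cells.

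The start regions of 4 of the genes are shown because they range from Cnp, which came on early, to Mag, Mobp and Mog, which came on later, and because their letters could be searched for the cores bound by the 2 regulators named above. RefSeq's table for GRCm38.p6 holds start regions for 8 of the 9 genes. Cnp lies on chromosome 11 (100574904 to 100591729, plus strand), Mag on chromosome 7 (30899176 to 30914873, minus strand), Mobp on chromosome 9 (120149707 to 120181484, plus strand) and Mog on chromosome 17 (37010743 to 37023398, minus strand). The printed stretches are chr11:100574689-100574903, chr7:30914923-30915172, chr9:120149492-120149706 and chr17:37023399-37023648, each written 5' to 3' on the gene's own strand and ending before the annotated gene. Capitals mark the SOX core ACAAAG and the MYRF cores CTGGCAC and CTGGTAC, searched on both strands.
Cnp: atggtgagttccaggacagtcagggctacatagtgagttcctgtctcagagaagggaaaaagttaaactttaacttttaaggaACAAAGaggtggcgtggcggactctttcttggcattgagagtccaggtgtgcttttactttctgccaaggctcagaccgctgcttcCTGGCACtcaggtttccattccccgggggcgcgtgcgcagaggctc
Mag: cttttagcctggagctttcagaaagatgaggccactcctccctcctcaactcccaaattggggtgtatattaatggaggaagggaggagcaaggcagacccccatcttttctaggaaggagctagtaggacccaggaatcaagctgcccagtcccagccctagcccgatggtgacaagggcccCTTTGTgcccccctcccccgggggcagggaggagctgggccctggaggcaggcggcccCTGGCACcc
Mobp: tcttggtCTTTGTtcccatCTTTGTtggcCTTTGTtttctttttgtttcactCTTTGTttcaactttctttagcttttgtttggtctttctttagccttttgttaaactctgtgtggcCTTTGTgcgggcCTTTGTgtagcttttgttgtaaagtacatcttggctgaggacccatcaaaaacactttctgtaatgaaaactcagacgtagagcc
Mog: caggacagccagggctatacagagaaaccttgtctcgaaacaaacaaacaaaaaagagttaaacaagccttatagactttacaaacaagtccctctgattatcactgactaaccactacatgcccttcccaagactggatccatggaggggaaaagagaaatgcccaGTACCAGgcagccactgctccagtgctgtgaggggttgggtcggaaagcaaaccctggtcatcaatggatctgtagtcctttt
The SOX core stood in the 250 bases before a start of 4 of the 8 genes (Cnp, Mag, Mobp and Opalin), with 6 copies in Mobp, and in 16.5% of all 32851 start regions of that length. A MYRF core stood in 3 of the 8 (Cnp, Mag and Mog) and in 5.93% of all start regions. A gene was counted if any of its starts had a match, whereas these percentages are shares of single start regions. In Mag, for which RefSeq lists 3 starts, the window of the innermost start held neither core. The windows of Mal, Cldn11 and Ermn held neither. Cldn11 lies on chromosome 3 (31149920 to 31164324, plus strand), Mal and Ermn on chromosome 2 (127633226 to 127656695 and 58045113 to 58052864, both minus strand) and Opalin on chromosome 19 (41061710 to 41077113, minus strand). A match in letters is not a measured binding site.

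In mature cells all 9 genes were abundant in both libraries. Mbp, whose protein holds the cytoplasmic faces of compact myelin together, stood at 3635 CPM in DTRneg and 3669 CPM in DTRpos. Mobp, a small basic protein of compact myelin, stood at 1854 and 2258 CPM. Cldn11, which forms the tight junctions between myelin layers, stood at 4237 and 3836 CPM. These 3 genes of the compacted sheath were within a factor of 1.5 between the libraries. Cnp, an enzyme of non-compact myelin that keeps cytoplasmic channels open, stood at 5038 and 5468 CPM. Mal, a raft-associated proteolipid of membrane sorting, stood at 11411 and 13039 CPM. Ermn, a cytoskeletal protein of myelinating oligodendrocytes, stood at 2797 and 2787 CPM. For Cnp, Mal and Ermn, too, the libraries lay close together. Mag, the adhesion molecule that faces the axon, stood at 3583 and 4080 CPM. Mog, an immunoglobulin-domain protein of the outermost surface, stood at 1965 and 1875 CPM. Opalin, a transmembrane glycoprotein specific to oligodendrocytes, stood at 1890 and 2063 CPM. The 9 genes together made up 3.64% of all UMIs of mature cells in DTRneg and 3.91% in DTRpos. When each cell was thinned to 1000 UMIs, the median mature cell still showed 8 of the 9 genes in both libraries.

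The genes did not come on together. Cells of the lineage were grouped by stage-marker UMIs, from cells with Pdgfra and no later marker (540 in DTRneg, 734 in DTRpos), through cells with Bmp4 and no Pdgfra (36 and 25) and cells with Enpp6 and neither Pdgfra nor Bmp4 (55 and 27), to cells with Aspa and no earlier marker (2240 and 1618). In the Bmp4 cells, Cnp had reached 63.9% of its mature level in DTRneg (59.8 to 68.2) and 52.0% in DTRpos (47.1 to 57.4). Mbp had reached 62.7% (57.9 to 67.8) and 43.5% (38.0 to 49.6). The Mbp level rested on few cells, since 5 cells held 51.6% of its UMIs in DTRneg and 86.7% in DTRpos, against 33.5% and 52.1% for Cnp. At 1000 UMIs, Mbp was found in 50% and 28.0% of the Bmp4 cells and Cnp in 80.6% and 92.0%. Summed over cells, Cnp and Mbp were the 2 genes nearest to their mature level at the Bmp4 stage in each library. Cldn11 stood at 14.8% and 8.65% there, Mag at 5.50% and 7.27%, and Mog at 4.38% and 5.65%. Mobp stood at 1.55% and 0.938%, Mal at 0.377% and 1.03%, Ermn at 0.256% and 1.27%, and Opalin at 0.379% and 3.77%. The last 4 genes rested on few molecules, between 2 UMIs (Opalin and Ermn in DTRneg) and 19 UMIs (Mal in DTRpos), and except for Opalin in DTRpos (77.7 CPM) they lay below the level in endothelial cells given below.

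In the Enpp6 cells, 4 genes stood above their mature level in CPM, a share of UMIs, in both libraries. Mbp stood at 309% of its mature level in DTRneg (297 to 321) and 277% in DTRpos (258 to 297), or 11217 and 10152 CPM. Cnp stood at 149% and 148%, Cldn11 at 143% and 138%, and Mag at 122% and 131%. None of these 8 intervals reached down to 100%. Enpp6 cells were shallower than mature cells, with medians of 3335 and 2570 UMIs against 7672 and 6375.5. Mean UMIs per cell of Cnp, Cldn11 and Mag lay below those of mature cells in both libraries. For Cnp they were 31.8 and 23.9 against 49.6 and 48.2. The mean of Mbp was above in DTRneg (47.6 against 35.8) and slightly below in DTRpos. The 4 genes were thus higher as a share of UMIs but, per cell, only Mbp in DTRneg was. In CPM, Mobp was at 59.8% in DTRneg (52.7 to 67.6) and 94.9% in DTRpos (81.2 to 110). Mog was at 24.6% and 42.1%, Opalin at 10.4% and 16.4%, Ermn at 9.34% and 36.0%, and Mal at 7.20% and 23.4%. These levels rested on few cells. The 5 cells richest in each gene held 38.1% and 79.4% of the UMIs of Mog and 78.3% and 70.4% of those of Opalin. For Ermn they held 85.2% and 88.8%, and for Mal 97.4% and 92.2%. A Mal UMI was found in 10 of the 55 cells in DTRneg and 14 of the 27 in DTRpos. The 4 genes with the lowest percentages at this stage were Mog, Opalin, Ermn and Mal in each library. In DTRpos 22.2% of these 27 cells belonged to mature clusters, against 7.27% of 55 in DTRneg. In cells with Aspa and no earlier marker all 9 genes stood between 92.9% and 117% of the mature level. Of these cells 99.6% in DTRneg and 99.4% in DTRpos belonged to mature clusters. They make up much of the class they are compared with, so values near 100% were set by construction.

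**Figure D1:**
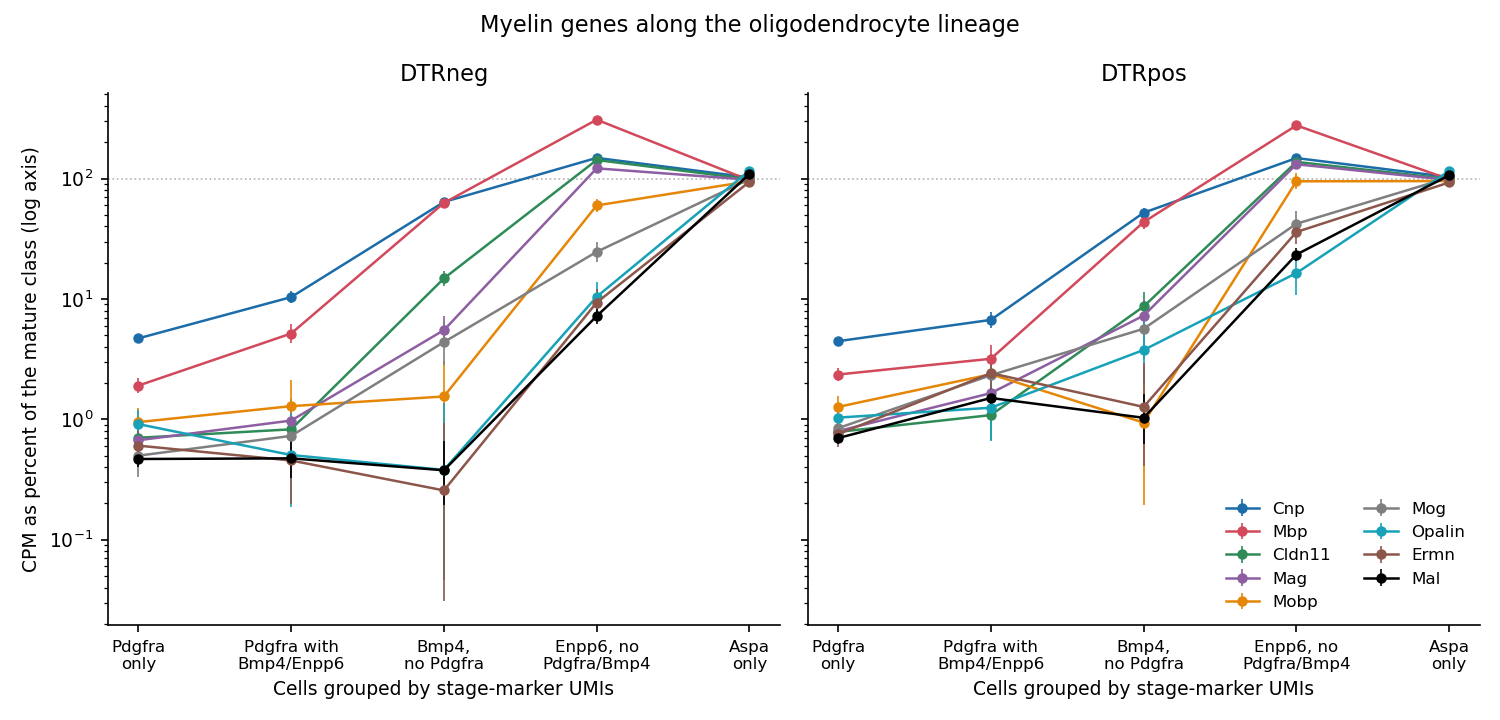
CPM of each gene as a percentage of its level in the mature class of the same library (log axis), for cells grouped by stage-marker UMIs from left to right; bars are 95% counting intervals and the dotted line is 100%. Cnp and Mbp stand highest in the Bmp4 cells (63.9% and 62.7% in DTRneg), Mbp passes its mature level in the Enpp6 cells (309% and 277%), and Mal, Ermn and Opalin are the 3 lowest genes there (7.20%, 9.34% and 10.4% in DTRneg). The Aspa cells are nearly all part of the mature class, so they lie near 100% by construction.

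Pairs of genes were also read within single cells of the differentiating cluster, thinned to 1000 UMIs (128 cells in DTRneg and 77 in DTRpos). Of the cells with only 1 of Cnp and Mbp, 17 in DTRneg had Cnp and 1 had Mbp, and in DTRpos 16 had Cnp and 0 had Mbp. Mbp without Mag was found in 22 and 5 cells, and Mag without Mbp in 0 and 1. Mag without Mog was found in 50 and 30 cells, and Mog without Mag in 4 and 1. Mobp without Mog was found in 28 and 20 cells, and Mog without Mobp in 13 and 3, while at the Bmp4 stage Mog had the higher percentage of its mature level. Ermn and Mal were almost always found on top of Mag: Ermn without Mag was found in 0 and 0 cells and Mag without Ermn in 68 and 32, while Mal without Mag was found in 3 and 2 cells and Mag without Mal in 66 and 33. These are counts of detected molecules at a fixed depth, in which a gene with fewer molecules per cell is missed more often, and they describe cells of 1 library each. The median differentiating cell showed 4 of the 9 genes in DTRneg and 5 in DTRpos.

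Over the differentiating cluster as a whole, which mixes these steps, Mbp stood at 6595 and 5654 CPM, or 181% and 154% of its mature level, and Cnp at 5880 and 6080 CPM, or 117% and 111%. Mag (76.9% and 84.6%) and Cldn11 (75.5% and 78.6%) were near their mature level, and Mal (7.38% and 35.5%) and Ermn (9.30% and 21.2%) had the lowest percentages of the 9. Of this cluster's cells 48 and 27 had a Bmp4 UMI. In them Mobp stood at 63.2 and 82.8 CPM, against 2144 and 3191 CPM in the 80 and 51 cells without a Bmp4 UMI. Mag stood at 445 and 331 CPM with a Bmp4 UMI and at 5768 and 6528 CPM without. Cnp differed least between these cells, with 3381 and 2756 CPM against 9135 and 9358 CPM. Gpr17, a receptor of cells about to myelinate, moved the opposite way, with 888 and 822 CPM in cells with a Bmp4 UMI and 120 and 40.8 CPM in cells without. Cells with a Bmp4 UMI were deeper, with medians of 7533.5 and 5712 UMIs against 3311.5 and 2452, and these levels were not matched for depth.

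In precursors 8 of the 9 genes did not stand above the level found in cells that do not make myelin. Endothelial-like cells (508 and 370) and neuroblast-like cells (202 and 157) were used to read free RNA, that is, molecules released from broken cells and captured with every droplet. The median of the 9 genes, as a percentage of the mature level, was 0.689% and 0.831% in precursors, 2.85% and 2.75% in endothelial cells, and 2.47% and 1.51% in neuroblasts. Mbp stood at 67.6 and 85.8 CPM in precursors, 128 and 107 CPM in endothelial cells, and 113 and 95.8 CPM in neuroblasts. Mog stood at 11.3 and 15.6 CPM in precursors, 52.4 and 43.1 CPM in endothelial cells, and 39.0 and 31.2 CPM in neuroblasts. For 8 of the 9 genes the precursor level lay below the higher of these levels in both libraries, so it was not above background. Cnp was the exception, with 257 and 252 CPM in precursors against 160 and 150 CPM in endothelial cells and 132 and 89.6 CPM in neuroblasts. Its ratio to the higher of the latter was 1.60 in DTRneg (1.36 to 1.90) and 1.68 in DTRpos (1.37 to 2.08), so 0 of the 9 genes reached a 2-fold margin in both libraries. Endothelial cells were shallower than precursors, with medians of 1945 and 1598 UMIs against 5269 and 4362. A comparison in CPM therefore cannot show that a gene is silent in precursors.

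The background levels rested on a few cells. The 5 cells richest in these genes held 42.4% and 21.5% of their UMIs in endothelial cells and 76.5% and 53.2% in neuroblasts, but 3.97% and 3.45% in precursors. At 1000 UMIs, 4 and 2 endothelial cells and 2 and 2 neuroblasts showed 5 or more of the 9 genes, as did 1 and 0 precursors, although called doublets had been removed. Without the 5 richest cells of each class, a step chosen after seeing the data, the median was 1.53% and 2.04% in endothelial cells, 0.527% and 0.720% in neuroblasts and 0.667% and 0.801% in precursors. Cnp in precursors (250 and 249 CPM) then stood 3.10 and 2.23 times above endothelial cells and 5.84 and 5.90 times above neuroblasts, and was the 1 gene past the 2-fold margin. Mbp in precursors then stood 2.18 and 1.67 times above neuroblasts but at 0.912 and 0.907 of the endothelial level. The share of precursors with a Cnp UMI at 1000 UMIs was 22.8% and 21.5%, against 8.62% and 12.1% of endothelial cells and 8.46% and 4.46% of neuroblasts, whose median depths before thinning were 5269 and 4362, 1945 and 1598, and 6945 and 5951 UMIs. Thinning left out 67 and 63 endothelial cells, 3 and 3 precursors, 1 and 0 neuroblasts, and 29 and 40 astrocyte-like cells. Before thinning the shares were 70.3% and 63.1% of precursors, 15.9% and 18.9% of endothelial cells and 26.2% and 22.3% of neuroblasts. Cnp was not particular to precursors outside mature cells: in astrocyte-like cells it stood at 213 and 222 CPM, with a UMI in 18.0% and 20.5% of thinned cells.

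**Figure D2:**
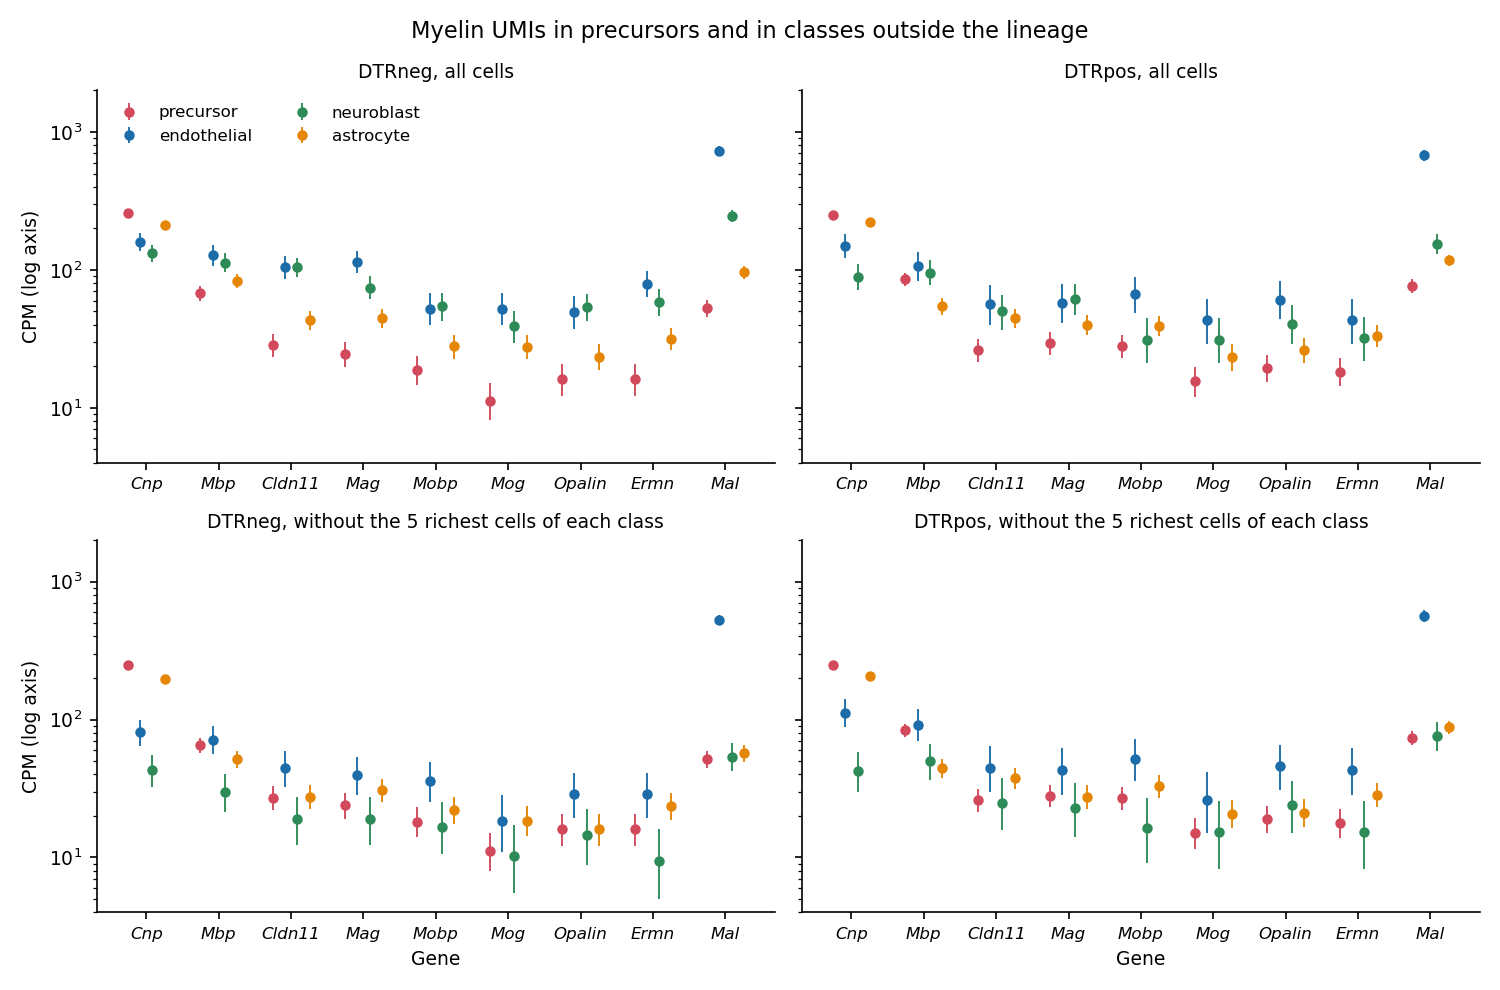
CPM of each gene (log axis) in precursor-like, endothelial-like, neuroblast-like and astrocyte-like cells of each library, over all cells (top) and without the 5 richest cells of each class (bottom); bars are 95% counting intervals. Cnp in precursors and astrocytes (257 and 213 CPM in DTRneg) and Mal in endothelial cells (734 and 680 CPM) stand apart from the other values.

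Mal did not follow the free-RNA pattern in endothelial cells. It stood at 734 CPM in DTRneg and 680 CPM in DTRpos, or 6.43% and 5.21% of its mature level, where the other 8 genes stood at 2.47% to 3.53% and 1.42% to 2.96%. At 1000 UMIs a Mal UMI was found in 41.0% and 40.1% of endothelial cells, against 4.48% and 8.92% of neuroblasts, 4.12% and 9.12% of precursors and 5.48% and 10.3% of astrocytes. The other 8 genes were found in 2.04% to 8.62% and 2.28% to 12.1% of endothelial cells. Without the 5 richest cells Mal in endothelial cells remained at 525 and 565 CPM. Endothelial cells are therefore not a measure of free RNA for Mal, and in neuroblasts without the 5 richest cells Mal stood at 53.7 and 75.9 CPM, beside 51.6 and 74.1 CPM in precursors.

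Within mature cells, Opalin and Mal varied most. Over the 5 mature clusters, in DTRneg and DTRpos, Opalin ranged from 1010 to 2235 CPM and from 1079 to 2521 CPM, and Mal from 8371 to 13275 CPM and from 9736 to 15484 CPM. Both were lowest in cluster 3, the cluster led by Klk6, where Enpp6 also stood at 338 and 317 CPM. Ermn ran the other way, from 2432 to 3313 CPM and from 2368 to 3362 CPM, and was highest in cluster 3. Mag ranged from 3473 to 3731 CPM and from 3929 to 4263 CPM, and Cnp from 4875 to 5179 CPM and from 5202 to 5712 CPM. The clusters were formed without these genes but from the same cells, so these ranges are a description.

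Mature cells with a Klk6 UMI (310 in DTRneg and 215 in DTRpos) showed the same pattern against those with none (3283 and 2313). Opalin stood at 1417 CPM with a Klk6 UMI and 1966 CPM without in DTRneg, and at 1517 and 2159 CPM in DTRpos, log2 ratios of -0.47 (-0.51 to -0.44) and -0.51 (-0.55 to -0.47). Mal stood at 9187 and 11768 CPM in DTRneg and at 11497 and 13309 CPM in DTRpos, log2 ratios of -0.36 and -0.21. The log2 ratios of the other 7 genes lay between -0.06 and 0.13, and the median of the 9, averaged over the libraries, was -0.00. Cells with a Klk6 UMI were deeper, with medians of 11247 and 11248 UMIs against 7549 and 6156. At 1000 UMIs Opalin was found in 62.3% and 60.9% of cells with a Klk6 UMI and in 82.1% and 84.1% of cells without. Enpp6 was higher in cells with a Klk6 UMI (222 and 185 CPM) than in those without (82.2 and 71.9 CPM). Aspa was similar in both, with 998 and 1005 CPM against 1023 and 1019 CPM.

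**Figure D3:**
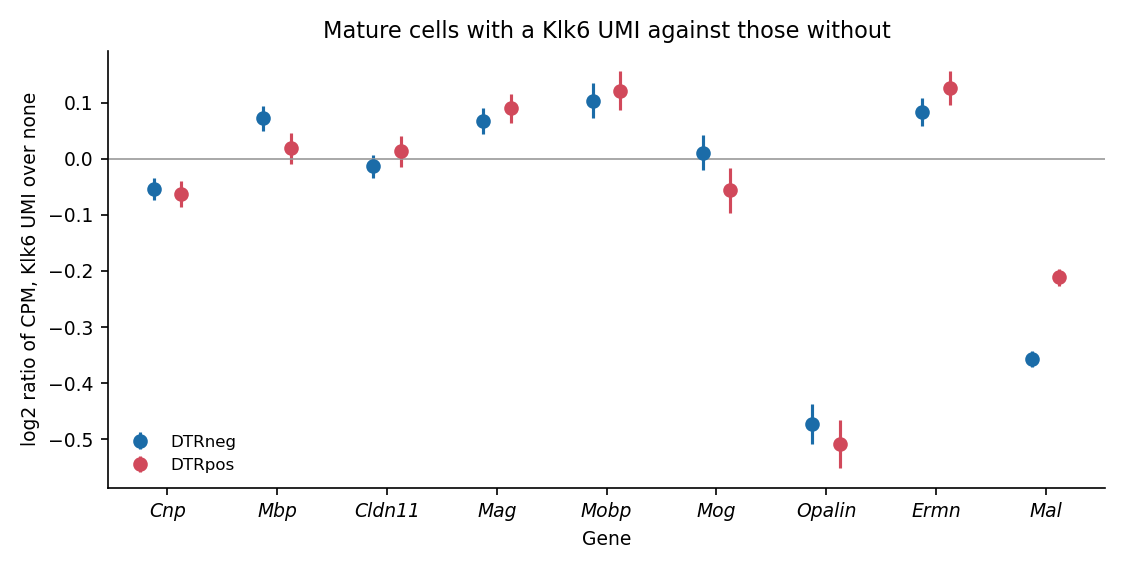
Log2 ratio of CPM in mature cells with a Klk6 UMI over those without, for each gene and library; bars are 95% counting intervals. Opalin (-0.47 and -0.51) and Mal (-0.36 and -0.21) lie below the other 7 genes in both libraries.

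Between the libraries, mature cells differed little in these genes. Of the 9, 0 passed a 1.5-fold difference in either direction, where 0.968% of the 2996 genes with at least 50 CPM and 20 UMIs did. The highest log2 ratio of DTRpos over DTRneg was that of Mobp, 0.28 (0.27 to 0.30), and the lowest that of Cldn11, -0.14 (-0.16 to -0.13). Mal (0.19), Mag (0.19), Opalin (0.13) and Cnp (0.12) were higher in DTRpos, Mog (-0.07) was lower, and the intervals of these 5 genes left out 0. Mbp had a log2 ratio of 0.01 (0.00 to 0.03) and changed sign with the processing. Ermn had a log2 ratio of -0.01 (-0.02 to 0.01). The median of the 9 genes was 0.12, beside 0.06 for all 2996 genes. The counting intervals are narrow because each gene had at least 41768 UMIs in mature cells of a library, and the spread between mice cannot be read from 1 library per group. Mobp was the highest of the 9 genes in each of the 5 mature clusters, with log2 ratios from 0.24 to 0.31, and Cldn11 was below 0 in each, from -0.18 to -0.11.

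**Figure D4:**
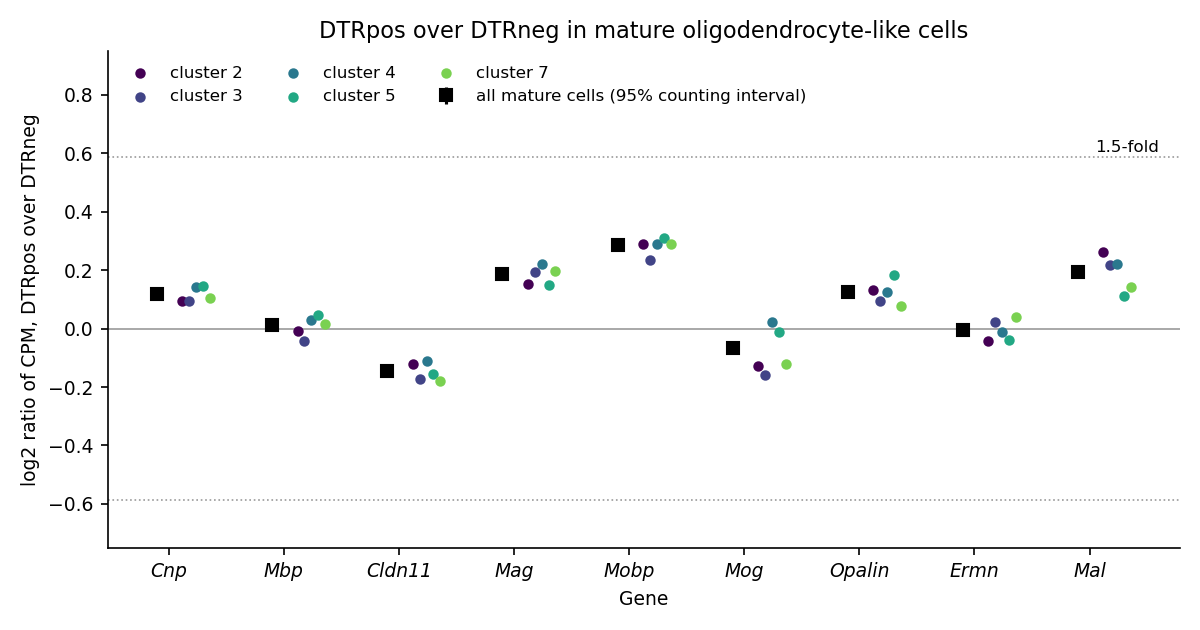
Log2 ratio of CPM in mature cells, DTRpos over DTRneg, for each gene: squares are all mature cells with 95% counting intervals (smaller than the symbol), circles the 5 mature clusters, dotted lines a 1.5-fold difference. Mobp (0.28) is highest and Cldn11 (-0.14) lowest, and no gene reaches the dotted lines.

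In differentiating cells 5 of the 9 genes passed 1.5-fold, all higher in DTRpos, where 16.8% of 3310 genes passed it in either direction. Mal stood at 842 CPM in DTRneg and 4635 CPM in DTRpos, a log2 ratio of 2.46 (2.33 to 2.60). Ermn (260 and 590 CPM), Opalin (448 and 902 CPM), Mog (498 and 987 CPM) and Mobp (967 and 1648 CPM) had log2 ratios of 1.18, 1.01, 0.99 and 0.77. These are the 5 genes that stood lowest against their mature level in the Enpp6 cells. Mag (0.32), Cnp (0.05), Cldn11 (-0.09) and Mbp (-0.22) did not pass the fold. The mature marker Aspa moved with them, at 49.5 CPM in DTRneg and 209 CPM in DTRpos, and the 5 cells richest in Mal held 69.6% and 72.9% of its UMIs. In the 112 and 66 differentiating cells without an Aspa UMI, a split chosen after seeing the data, Mal stood at 99.5 and 376 CPM, Ermn at 96.2 and 105 CPM, Opalin at 292 and 331 CPM, Mog at 362 and 291 CPM and Mobp at 879 and 1199 CPM. Mal (1.92) was then the 1 gene past the fold, and the median log2 ratio of the 9 genes was -0.07, against 0.77 over all differentiating cells. The 16 and 12 cells with an Aspa UMI thus carried most of the Mal and Ermn level of this cluster in both libraries, while Mobp without them was near its level over all cells in DTRneg and lower in DTRpos.

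**Figure D5:**
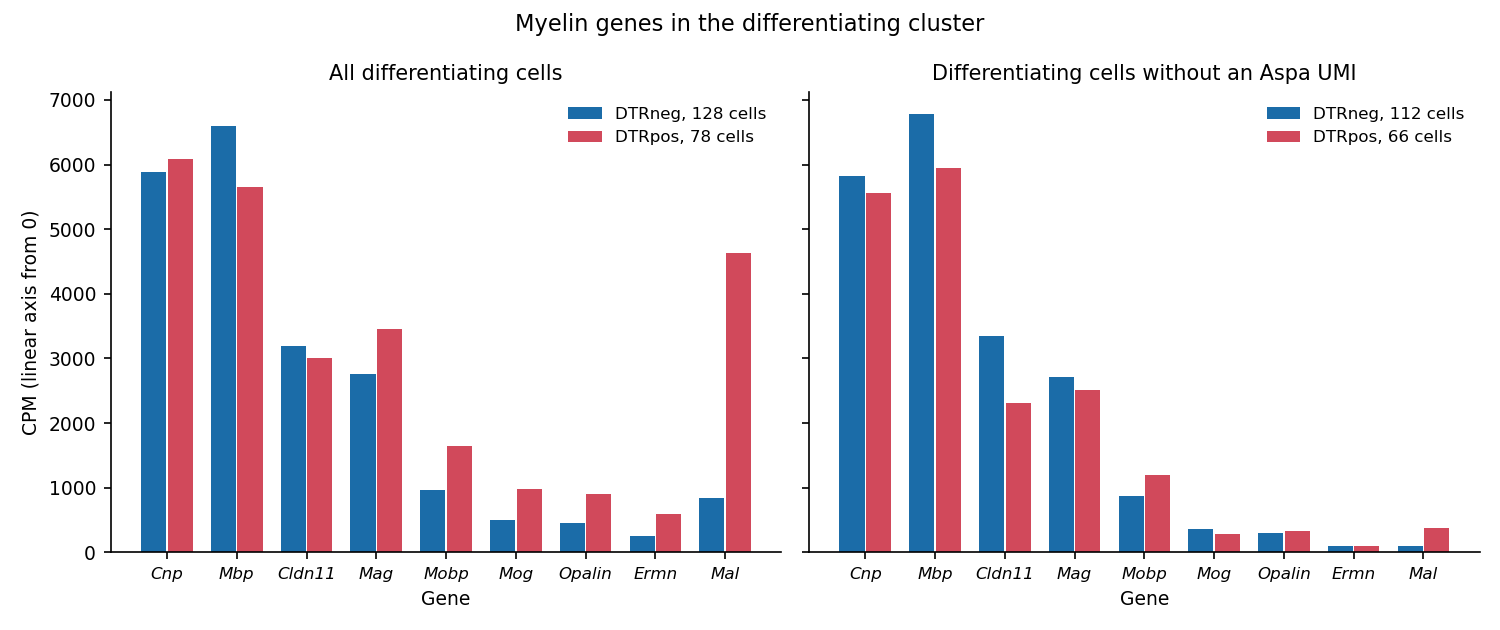
CPM of each gene in the differentiating cluster of each library (bars from 0), over all its cells (left) and over the cells without an Aspa UMI (right). Mal stands at 842 and 4635 CPM on the left and at 99.5 and 376 CPM on the right, and Ermn at 260 and 590 CPM against 96.2 and 105 CPM.

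In precursors 3 of the 9 genes (Mbp, Cnp and Mal) had enough UMIs to be read, and 0 passed 1.5-fold, where 1.14% of 4044 genes did. The log2 ratios were 0.34 for Mbp, -0.03 for Cnp and 0.53 for Mal. The precursor levels of Mbp and Mal did not stand above the background described earlier. Outside the lineage, 3 of 8 readable genes in endothelial cells (Mag, Cldn11 and Ermn) and 2 of 5 in neuroblasts (Mal and Cldn11) passed 1.5-fold, all lower in DTRpos, where 5.96% of 3222 genes and 4.07% of 3340 genes passed it. The median of all 9 genes there was -0.26 in endothelial cells and -0.56 in neuroblasts. Without the 5 richest cells it was 0.47 and 0.50, so the direction of the free-RNA level between the libraries rested on those cells.

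Other genes of the lineage gave the setting for the 9. Of 35 further myelin and myelination genes, 28 had their highest level among the 5 classes compared (precursor, differentiating, mature, endothelial and neuroblast) in mature and 7 in differentiating cells. Trf, Hapln2 and Gjb1, counted among the 28, were also markers used to name mature clusters, so their high mature level was partly set by the naming. Trf, which encodes the iron carrier transferrin (321 and 825 CPM in differentiating, 5869 and 5852 CPM in mature cells), and Car2, a carbonic anhydrase (151 and 567 CPM against 4819 and 4664 CPM), were low at the differentiating stage as Mal and Ermn were. The small heat shock protein gene Cryab (2047 and 2984 CPM against 6156 and 5234 CPM) and the tetraspanin gene Tspan2 (1021 and 1242 CPM against 1959 and 1937 CPM) were nearer to their mature level at that stage. Of 34 readable genes of this list 0 passed 1.5-fold between the libraries in mature cells, where only 0.968% of all 2996 readable genes did.

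Of 17 lineage transcription factors, 10 had their highest level in precursors, 3 in differentiating and 4 in mature cells. Sox10 was nearly level along the lineage, with 412 and 482 CPM in precursors, 298 and 370 CPM in differentiating cells and 361 and 384 CPM in mature cells. Myrf, the regulator needed for myelin gene expression, stood at 15.3 and 18.3 CPM in precursors, 118 and 88.1 CPM in differentiating cells and 214 and 201 CPM in mature cells. Nkx6-2 stood at 7.78 and 9.64 CPM, 183 and 311 CPM, and 764 and 820 CPM at these stages. Olig1 (2863 and 2672 CPM in precursors, 952 and 913 CPM in mature cells) and Olig2 (917 and 822 CPM against 184 and 159 CPM) were highest in precursors. None of the 8 readable factors passed 1.5-fold between the libraries in mature cells, where only 0.968% of all 2996 readable genes did.

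The genes most alike in pattern were sought among 1578 genes with at least 100 CPM in mature cells, by Pearson's r of log2(CPM + 1) with the mean of the 9 genes over 10 classes of both libraries (20 points that share libraries and free RNA). Among the 8 most alike were Nkx6-2 (0.99), Tmem125 (0.97), Tmem151a (0.96), Tppp (0.95), Qdpr (0.95) and Tmem88b (0.95). Of the 9 genes themselves, Mog had the highest r with the mean of the other 8 (0.99) and Mal (0.91) and Cnp (0.92) the lowest.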

How the data were processed

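Single-cell RNA from CD45- Thy1- hippocampal cells was measured in 1 DTRneg and 1 DTRpos library. The deposited tables hold raw UMI counts per gene ID and barcode, made with Cell Ranger 6.1.0 on mm10, per the submitters' processing notes. The annotation release is not given in the sources used here, and 54435 of 55487 IDs matched GENCODE vM21 (GRCm38) with their version. Counts of IDs with the same symbol were summed.

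Barcodes needed at least 500 genes and at most 15% mitochondrial UMIs, which left 7105 and 5849 cells. Scrublet called 242 and 158 doublets, which were removed. Cells were clustered in Scanpy 1.11.5 (2000 variable genes, 30 components, 15 neighbours, Leiden resolution 1) without the 9 members and 35 further myelin genes. A cluster was named from at least 3 markers found in at least 10% of its cells and raised at least 1.5-fold, thresholds set after seeing the data. The authors' own cell annotation was not used here, so classes may be bounded otherwise than theirs.

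UMIs were summed per class and library and scaled to CPM. Shares of cells are given after thinning each cell to 1000 UMIs. Intervals are exact (Poisson, Clopper-Pearson and conditional binomial, 95%) and cover counting error alone. With 1 library per group no test was made. Genes counted as readable had at least 50 CPM (mean of the libraries) and 20 UMIs. The ratios and intervals were tested on simulated data. Alternatives were other cell filters, doublets kept, equal weight per cell, thinned cells, other scalings, other clusterings and classes by marker UMIs. Of the further lists, the 5 genes with most UMIs in mature cells and those past 1.5-fold there were named, and the 8 genes most alike to the mean of the members. Single values of some of these genes are not reported here. The members and lists were chosen with earlier results of these data known. The meningeal samples were not used here.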

Additional observations from a re-analysis of the deposited data

Results flagged for a closer look

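Mbp and Mog had log2 ratios of opposite sign at different stages in the main setting. This was read from intervals that cover counting error alone, and the difference between stages was not tested. The log2 ratio of Mbp, DTRpos over DTRneg, was 0.34 in precursors, -0.22 in differentiating cells and 0.013 in mature cells. In precursors its level did not stand above background. That of Mog was 0.99 in differentiating cells and -0.068 in mature cells. In differentiating cells without an Aspa UMI the values were -0.19 for Mbp and -0.31 for Mog, so Mog then had the same sign as in mature cells. The mature value of Mbp did not keep its sign. It was -0.0011 with cells weighted equally, -0.048 scaled by the median ratio of all genes and -0.011 at Leiden resolution 2.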

How the results depend on the processing

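With 1 library per group the limit is the missing spread between mice, and below about 50 CPM few UMIs. Of 86 values recomputed for the medians and the count of genes above background, 60 stayed within the counting interval of the reported value, 22 moved outside it and 4 changed sign where that interval left out 0. Among the other values, 4 also changed sign where the interval held 0, in precursors with doublets kept, in endothelial cells without the 5 richest cells and with equal weights (0.10), and by Klk6 UMI at resolution 2 (0.016). The median log2 ratio in mature cells (0.12) was 0.11 thinned, 0.057 scaled by the median ratio of all genes and 0.11 at Leiden resolution 2. In these cells Mbp (0.01) was -0.0011 with cells weighted equally, -0.048 scaled and -0.011 at resolution 2. In precursors the median (0.28) was -0.66 with doublets kept. In differentiating cells (0.77) it was 0.60 with doublets kept, 0.43 with equal weights, 0.42 thinned, 0.087 when clustered with the members, 0.11 with classes by marker UMIs, 0.25 without the 5 richest cells and -0.066 without cells with an Aspa UMI. In endothelial cells (-0.26) it was -1.28 with doublets kept and 0.47 without the 5 richest cells. In neuroblasts (-0.56) it was -1.22 with doublets kept, 0.022 with equal weights, 0.16 thinned, -1.32 at resolution 2 and 0.50 without the 5 richest cells. The endothelial level as a percentage of mature was 29.2% (DTRneg) and 11.9% (DTRpos) with doublets kept, 1.79% with equal weights and 1.79% thinned in DTRneg, and 1.53% and 2.05% without the 5 richest cells of each class. Without those cells 1 gene, Cnp, stood above the background in precursors. The median ratio by Klk6 UMI (-0.00) was -0.060 with classes by marker UMIs. The settings without the 5 richest cells and without Aspa were chosen after seeing the data. Where the construction of a setting does not show it, the cause was not tested. No paired analysis was possible because each group is 1 library and the result comes from no test.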

Other observations

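A cluster that met no naming rule (cluster 17, 105 cells in DTRneg and 78 in DTRpos) carried the 9 genes at levels like those of mature cells, with Mbp at 3486 and 3442 CPM, Mal at 10445 and 11643 CPM and Opalin at 2121 and 2221 CPM, and Aspa at 1060 and 1110 CPM. Cenpf and Tpx2, genes of dividing cells, led it, but the cycling marker list did not name it. The mature marker Ptgds was also among its leading genes. The cluster was kept out of the mature class. Among classes outside the lineage, the median of the 9 genes as a percentage of the mature level was 11.0% in choroid plexus-like cells of DTRneg (209 cells) and 4.41% in those of DTRpos (49 cells), and 3.87% and 4.72% in neural stem cell-like cells (104 and 67 cells).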
